A study of Mus musculus with 9 samples.

Results

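Of the 9 whole-lung RNA libraries of the series, 6 were divided by the level of Dbp, an output gene of the circadian clock, into 4 Dbp-high and 2 Dbp-low libraries. The 6 came from wild-type C57BL/6 mice, 3 labelled normoxia (replicates 2, 3 and 5) and 3 labelled hypoxia (replicates 1, 2 and 5), the latter kept at 10% oxygen for 3 weeks. A library was Dbp-high when Dbp exceeded 100 CPM (counts divided by the column total and scaled to a common library size), and Dbp-low when Dbp lay under 20 CPM. Normoxia replicates 2 and 3 and hypoxia replicates 1 and 2 were Dbp-high, and replicate 5 of each oxygen group was Dbp-low. The other 3 libraries, from hypoxic mice of the same strain and 3 weeks of exposure that were also given parathyroid hormone (PTH) residues 1 to 34 at 40 µg/kg per day, lay outside the division and served as a further description. The labels mention a sham group given saline without saying which samples it comprised. They give a cycle of 12 h of light and dark for the hypoxia libraries with and without PTH, and no light cycle for the normoxia libraries. No hour of tissue collection is given for any library, and the labels do not state that each library came from its own animal. Totals ran from 40234030 to 58391086 counts per library.

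The mammalian clock is a feedback loop of transcription that runs in most cells, lung cells included. BMAL1 (encoded by Arntl) pairs with CLOCK or NPAS2 and binds E-boxes to switch on the period, cryptochrome and REV-ERB genes, as well as Dbp, whose products act on the next steps: period and cryptochrome proteins inhibit the activator, and REV-ERB proteins (Nr1d1 and Nr1d2) compete with ROR proteins at the RORE motif and repress Arntl. DBP, HLF and TEF activate genes through D-boxes, which NFIL3 represses. Genes with E-boxes and genes with ROREs therefore peak at different times of day.

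Dbp set the division, so its level is given as a description. The 2 Dbp-high normoxia libraries had 204 CPM (replicate 2) and 158 CPM (replicate 3), and the Dbp-high hypoxia libraries had 318 CPM (replicate 1) and 197 CPM (replicate 2). The Dbp-low libraries had 6.73 CPM (normoxia) and 13.98 CPM (hypoxia). No library lay between 20 and 100 CPM: the Dbp-high library nearest the upper bound had 158 CPM and the Dbp-low library nearest the lower bound had 13.98 CPM. Arntl, the second gene that marks the phase, stood at 4.79, 3.45, 2.31 and 1.77 CPM in the Dbp-high libraries in the same order and at 44.7 and 50.3 CPM in the Dbp-low libraries. Dbp and Arntl were thus opposite in every one of the 6 libraries, which is the pattern the division is named for. All 3 PTH libraries stood on the Dbp-low side, at 10.6, 16.2 and 6.01 CPM of Dbp and 50.3, 40.5 and 43.5 CPM of Arntl.

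Promoter sequence was examined for the genes that differed between the Dbp-high and Dbp-low libraries, in RefSeq windows of 300 bases (250 before to 50 after a transcription start, build GRCm38.p6). These 4 windows hold the RORE letters TAGGTCA, read on either strand and set in capitals, in genes that were lower in the Dbp-high libraries. The gene on chromosome 7 is Arntl (chr7:113207261-113207560, plus strand), that on chromosome 13 is Nfil3 (chr13:52980990-52981289, minus strand), that on chromosome 9 is Leo1 (chr9:75441274-75441573, plus strand) and that on chromosome 1 is Fam124b (chr1:80213895-80214194, minus strand).
Arntl: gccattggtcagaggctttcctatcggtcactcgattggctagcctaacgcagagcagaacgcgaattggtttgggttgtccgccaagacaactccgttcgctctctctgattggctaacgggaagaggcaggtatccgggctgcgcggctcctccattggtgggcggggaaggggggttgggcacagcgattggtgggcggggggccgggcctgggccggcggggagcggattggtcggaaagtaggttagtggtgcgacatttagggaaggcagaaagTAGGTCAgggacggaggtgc
Nfil3: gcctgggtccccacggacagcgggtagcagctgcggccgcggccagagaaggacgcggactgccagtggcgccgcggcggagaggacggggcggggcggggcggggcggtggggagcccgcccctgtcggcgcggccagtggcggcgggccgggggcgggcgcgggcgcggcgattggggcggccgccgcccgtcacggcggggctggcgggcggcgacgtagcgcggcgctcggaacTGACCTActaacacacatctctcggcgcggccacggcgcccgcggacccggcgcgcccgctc
Leo1: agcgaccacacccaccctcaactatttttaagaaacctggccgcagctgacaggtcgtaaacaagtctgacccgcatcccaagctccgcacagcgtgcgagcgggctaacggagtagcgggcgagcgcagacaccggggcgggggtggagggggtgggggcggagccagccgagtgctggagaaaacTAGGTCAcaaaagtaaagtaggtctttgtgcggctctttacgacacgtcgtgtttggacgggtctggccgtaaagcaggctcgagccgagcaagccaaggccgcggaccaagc
Fam124b: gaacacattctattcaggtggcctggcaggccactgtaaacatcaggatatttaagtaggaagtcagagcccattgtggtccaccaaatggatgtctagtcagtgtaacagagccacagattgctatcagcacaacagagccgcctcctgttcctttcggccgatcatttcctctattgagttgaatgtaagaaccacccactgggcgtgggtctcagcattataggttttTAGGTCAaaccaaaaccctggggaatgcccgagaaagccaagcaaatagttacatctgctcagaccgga

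Genes that were higher in the Dbp-high libraries are represented by 3 windows, in which capitals mark the E-box CACGTG of Tspan4 (chr7:141476130-141476429, plus strand) and Bhlhe41 (chr6:145865371-145865670, minus strand) and the D-box TTANGTAA, present at 2 places, of Per3 (chr4:151044616-151044915, minus strand).
Tspan4: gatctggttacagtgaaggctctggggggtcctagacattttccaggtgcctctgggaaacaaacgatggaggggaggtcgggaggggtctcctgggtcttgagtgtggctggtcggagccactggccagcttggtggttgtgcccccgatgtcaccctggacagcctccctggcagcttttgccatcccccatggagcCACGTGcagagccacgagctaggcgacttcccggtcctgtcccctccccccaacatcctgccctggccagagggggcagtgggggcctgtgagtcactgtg
Bhlhe41: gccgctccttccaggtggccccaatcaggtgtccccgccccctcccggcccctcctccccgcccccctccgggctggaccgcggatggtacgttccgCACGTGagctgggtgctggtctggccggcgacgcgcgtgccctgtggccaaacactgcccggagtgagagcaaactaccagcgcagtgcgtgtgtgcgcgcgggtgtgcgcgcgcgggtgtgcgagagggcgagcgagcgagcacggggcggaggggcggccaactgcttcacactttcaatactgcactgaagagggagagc
Per3: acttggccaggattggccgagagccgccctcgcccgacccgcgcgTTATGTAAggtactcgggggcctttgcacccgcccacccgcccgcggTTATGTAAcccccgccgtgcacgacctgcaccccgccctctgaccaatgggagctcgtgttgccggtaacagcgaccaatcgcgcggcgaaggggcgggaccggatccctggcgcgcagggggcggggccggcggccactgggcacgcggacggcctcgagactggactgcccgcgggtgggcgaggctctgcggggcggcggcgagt

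The RORE letters occurred in a window of 4 of the 10 genes that were lower in the Dbp-high libraries and had a window (40%: Arntl, Nfil3, Leo1 and Fam124b) and in 0 of the 19 genes that were higher. Among all genes tested the share was 2.42% of 13069, and among all RefSeq windows of this length it was 2.61% of 32851. The E-box letters occurred in 5 of the 19 higher genes (26.3%: Bhlhe41, Cpeb1, Pdxk, Tef and Tspan4) and in 1 of the 10 lower genes (Adamts17), against 10.6% of the genes tested and 7.15% of all windows. Arntl is a marker of the division, and Nfil3, Bhlhe41 and Tef belong to the core clock loop and its D-box factors. Outside those clock genes the RORE letters occurred in 2 of 7 lower genes with a window (28.6%: Leo1 and Fam124b). The E-box letters occurred there in 3 of 12 higher genes (25%) and 1 of 7 lower genes (14.3%). These shares were not tested. Clock genes that were not called also held motif letters, Ciart, Cry1 and Per1 those of the E-box and Rorb those of the D-box. Letters of the D-box were found in Per3 alone among the 29 genes (2.07% of the genes tested and 2.32% of all windows), and those of the cAMP response element, TGACGTCA, in Hlf alone (3.16% and 1.79%). Each motif was searched on both strands, no match in a called gene overlapped a match of another motif, and a gene with several windows was counted once if any held the motif. A match describes letters in a window and is not a binding site, and genes without a match may hold the motif elsewhere.

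**Figure D1:**
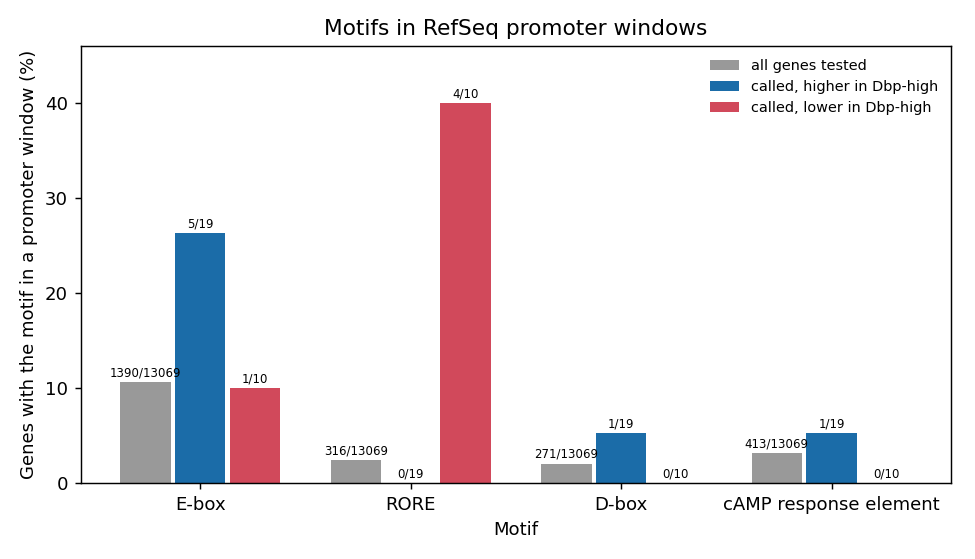
Share of genes with each motif in a RefSeq promoter window (percent, linear axis), for all genes tested (grey), called genes higher in Dbp-high libraries (blue) and called genes lower in them (red). Each bar is labelled with the genes with the motif over the genes with a window. The RORE bar of the lower genes (40%, 4 of 10) and the E-box bar of the higher genes (26.3%, 5 of 19) stand above the grey bars of the same motif. Both called sets include clock genes, with Arntl among the lower and Dbp among the higher.

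Across all genes the comparison asks which transcripts went with the Dbp level once the oxygen group was in the model. Libraries were sorted by a measured gene, so p-values describe genes that go with this division of 6 libraries and not the effect of a treatment, and because the Dbp-low libraries are exactly replicate 5 of each oxygen group, anything else those share cannot be told apart from clock phase. Of 19993 genes tested with edgeR's quasi-likelihood test, 38 were called at an adjusted p under 0.05 (0.19%), 24 higher in the Dbp-high libraries (0.12%) and 14 lower (0.07%). Apart from Dbp and Arntl, 36 genes were called, 23 higher and 13 lower, and 29 of them differed by at least 1 on the log2 scale. Their 4 Dbp-high libraries did not overlap with the 2 Dbp-low libraries in 35 of the 36, which all genes tested did in 15.4%, Gbp6 being the exception. All 36 lay on the same side in normoxia and in hypoxia, as 26.9% of the genes tested did. Both counts come from the same 6 libraries as the calls and largely follow from them, so they are not separate evidence. Among so many genes, many pass an unadjusted p of 0.05 with no difference, here and in the tests below. The count of 38 was small beside the 1729 genes with an unadjusted p under 0.05 and the 436 that DESeq2 called (2.18%). It rested on 3 residual degrees of freedom. With 1 library left out it fell to 27 (without normoxia replicate 2), 10 (normoxia replicate 3), 15 (normoxia replicate 5), 19 (hypoxia replicate 1), 24 (hypoxia replicate 2) and 22 (hypoxia replicate 5). Per3, Nr1d2, Tspan4, Hlf, Npas2, Tnxb and Bhlhe41 stayed called in each of those 6 fits, the other 29 genes lost the call in at least 1 of them, and all 36 kept their direction in every alternative fit that was run.

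Of the 19 other genes of the core loop and its D-box factors, 10 were called (52.6%, against 0.19% of all genes). These genes oscillate together in one loop with Dbp, so their calls are not separate evidence for the division. Repressors of the loop were higher in the Dbp-high libraries, and the activators Arntl and Npas2 were lower. All 10 measured repressor genes had a log2 fold change above 0, with a median of 1.35, beside a median of 0.0025 over all genes, and 6 of the 10 were called.

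Per3, a period gene (ENSMUSG00000028957, mm10 chromosome 4, 151003652 to 151044665, minus strand), stood at 143 and 131 CPM in Dbp-high normoxia, 164 and 173 CPM in Dbp-high hypoxia, 28.9 CPM in Dbp-low normoxia and 29.8 CPM in Dbp-low hypoxia. The Dbp-low libraries lay far below all 4 others and close to each other whatever the oxygen, and the log2 fold change was 2.35 (SE 0.11, edgeR adjusted p = 0.00147). Per2, its relative (ENSMUSG00000055866, chromosome 1, 91415982 to 91459324), had 186 and 189 CPM in Dbp-high normoxia, 170 and 208 CPM in Dbp-high hypoxia, and 59.98 and 31.8 CPM in the Dbp-low normoxia and hypoxia libraries. No library overlapped between the classes (log2 fold change 2.06, SE 0.24, edgeR adjusted p = 0.0479), but the call rested on single libraries, with an adjusted p of up to 0.136 when 1 was left out. Per1, another period gene, was not called: its levels of 452, 463, 408 and 472 CPM in the Dbp-high libraries stood against 392 and 321 CPM (log2 fold change 0.32, SE 0.11, edgeR adjusted p = 0.458). The period genes were thus unequal in size of difference, with Per3 and Per2 at more than 2 on the log2 scale and Per1 under 1.

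Both REV-ERB genes, which encode the repressors that act at ROREs, were higher in the Dbp-high libraries. Nr1d2 (ENSMUSG00000021775, chromosome 14) measured 243 and 259 CPM in normoxia and 264 and 264 CPM in hypoxia in the Dbp-high libraries, and 69.9 and 67.5 CPM in the Dbp-low libraries. Its values within a class differed little (log2 fold change 1.88, SE 0.098, edgeR adjusted p = 0.00178). Nr1d1 (ENSMUSG00000020889, chromosome 11) measured 246, 280, 311 and 224 CPM in the Dbp-high libraries and 73.8 and 107 CPM in the Dbp-low libraries (log2 fold change 1.55, SE 0.19, edgeR adjusted p = 0.042). It lies opposite Thra, which had 42.0% of its length-scaled level and a log2 fold change of -0.25, and how the counter used the strand is unknown here. The cryptochrome genes, whose proteins inhibit the activator with the period proteins, were not called: Cry1 ranged from 35.9 to 40.3 CPM in the Dbp-high libraries against 28.5 and 25.3 CPM (log2 fold change 0.49, SE 0.11, edgeR adjusted p = 0.215), and Cry2 from 147 to 184 CPM against 143 and 107 CPM (0.38, SE 0.15, adjusted p = 0.537). Cry1 libraries did not overlap between the classes, nor did those of Cry2. The call of Nr1d1 was lost in 5 of the 6 fits with 1 library left out, with an adjusted p of up to 0.236.

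The DEC genes, which encode repressors that compete at E-boxes, were both called. Bhlhe41 had 39.5 and 42.5 CPM in Dbp-high normoxia, 76.5 and 58.6 CPM in Dbp-high hypoxia, and 10.4 and 14.6 CPM in the Dbp-low libraries (log2 fold change 2.07, SE 0.15, edgeR adjusted p = 0.00465). Bhlhe40 had 101, 95.3, 87.5 and 80.1 CPM in the Dbp-high libraries and 39.8 and 40.7 CPM in the Dbp-low libraries (log2 fold change 1.15, SE 0.092, edgeR adjusted p = 0.00682). In both genes the Dbp-low libraries were the lowest of the 6. Bhlhe40 lost its call without normoxia replicate 3 or 5, with an adjusted p of up to 0.0616. Ciart, a repressor of the activator known as CHRONO, was not called, with 53.5 to 85.6 CPM in the Dbp-high libraries and 55.3 and 46.9 CPM in the Dbp-low libraries, which overlapped.

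Among the activators, Npas2, the relative of Clock that also pairs with BMAL1, had the sharpest contrast beside Arntl. Npas2 (ENSMUSG00000026077, chromosome 1, 39193731 to 39363236, plus strand) stood at 1.59 and 1.06 CPM in Dbp-high normoxia, 1.14 and 1.78 CPM in Dbp-high hypoxia, 15.7 CPM in Dbp-low normoxia and 18.6 CPM in Dbp-low hypoxia. Both Dbp-low libraries lay far above all 4 Dbp-high libraries, by a fitted 12.5-fold (log2 fold change -3.64, SE 0.22, edgeR adjusted p = 0.00224). Clock itself was higher in both Dbp-low libraries, at 95.0 and 79.5 CPM against 46.7 to 51.9 CPM, but did not pass the test (log2 fold change -0.82, SE 0.11, edgeR adjusted p = 0.0506). Rora and Rorb, whose proteins activate Arntl at ROREs, were not called: Rora had 65.3 to 88.7 CPM in the Dbp-high libraries against 72.6 and 57.9 CPM, and Rorb stayed at or under 0.526 CPM in the 6 libraries. Arntl2, a paralog of Arntl, had 2.14 to 3.92 CPM against 1.85 and 3.56 CPM and did not follow Arntl. Of the 6 activator genes other than Arntl, 1 was called.

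The D-box factors were called as a family, the activators Hlf and Tef higher in the Dbp-high libraries and the repressor Nfil3 lower. Hlf (ENSMUSG00000003949, chromosome 11) had 75.2 and 72.7 CPM in Dbp-high normoxia, 101 and 94.6 CPM in Dbp-high hypoxia, and 13.1 and 24.6 CPM in the Dbp-low libraries (log2 fold change 2.21, SE 0.13, edgeR adjusted p = 0.00196). Tef had 499, 531, 668 and 636 CPM in the Dbp-high libraries and 256 and 281 CPM in the Dbp-low libraries (log2 fold change 1.09, SE 0.11, edgeR adjusted p = 0.0171). Nfil3 (ENSMUSG00000056749, chromosome 13) had 9.76 and 7.26 CPM in Dbp-high normoxia, 3.92 and 6.80 CPM in Dbp-high hypoxia, and 29.0 and 22.2 CPM in the Dbp-low libraries (log2 fold change -1.93, SE 0.22, edgeR adjusted p = 0.0344, up to 0.21 with 1 library left out). Hlf and Tef thus stood opposite to Nfil3 in each library. Tef stayed called only without normoxia replicate 2 among the fits with 1 library left out, with an adjusted p of up to 0.109 in the others.

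**Figure D2:**
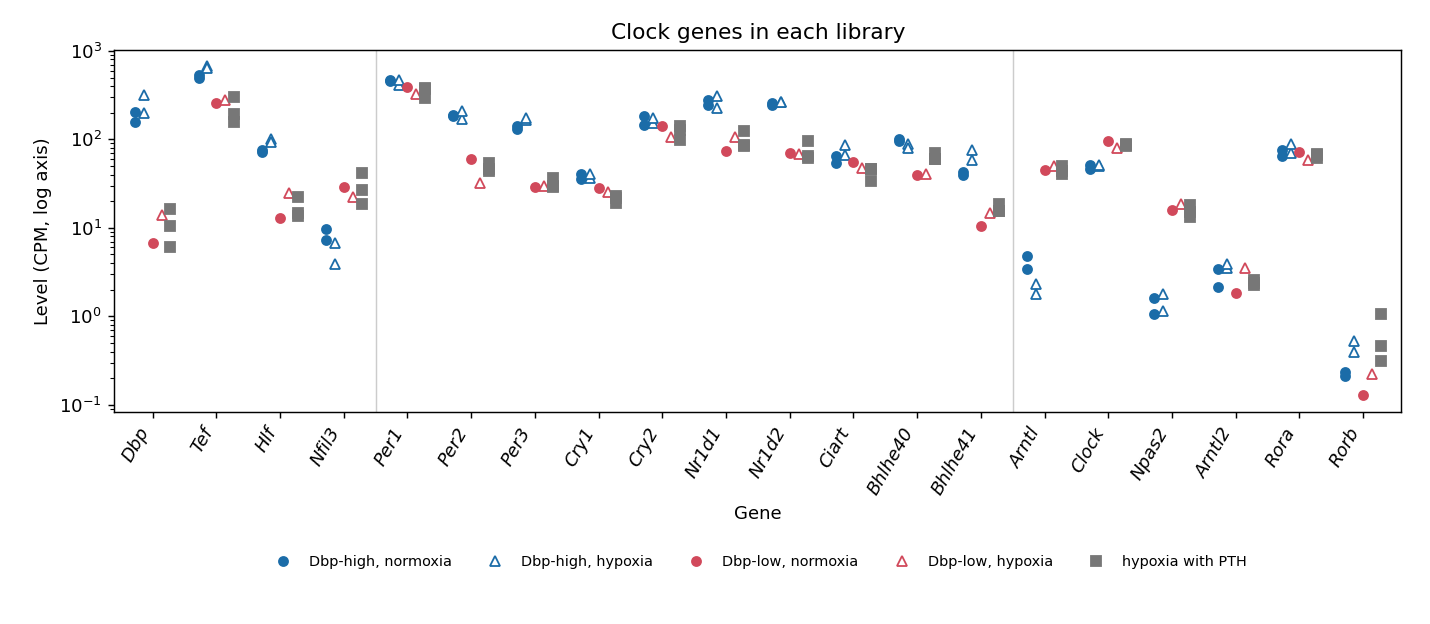
Level of 20 clock genes in each of 9 libraries (CPM, log axis): blue for Dbp-high, red for Dbp-low and grey squares for hypoxia with PTH, with filled circles for normoxia and open triangles for hypoxia. D-box factors are on the left, repressors in the middle and activators on the right. The red points of Per3 (28.9 and 29.8 CPM) and Nr1d2 (69.9 and 67.5 CPM) lie well under the blue points, those of Arntl and Npas2 lie well above, and those of Per1, Cry2 and Rora lie close by.

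Outside those lists 26 genes were called, 15 higher in the Dbp-high libraries and 11 lower. Clock-linked genes from a list of 18 outputs and of 9 that act on clock protein turnover were among them: Tspan4, Wee1 and Usp2 were higher, and Leo1 was lower. Of the 16 outputs measured, 4 were called, beside 0.19% of all genes tested, and the median log2 fold change of the list was 0.12. The list was chosen with earlier results of these data known. Tspan4, a tetraspanin membrane protein gene (ENSMUSG00000025511, chromosome 7, 141475240 to 141493427, plus strand), stood at 117 and 117 CPM in Dbp-high normoxia, 122 and 117 CPM in Dbp-high hypoxia, and 38.6 and 35.5 CPM in the Dbp-low libraries. The values within each class were close together, and the log2 fold change was 1.66 (SE 0.090, edgeR adjusted p = 0.00178). Wee1, the kinase that holds back mitotic entry and is a known clock output, had 35.2, 31.8, 30.6 and 32.3 CPM in the Dbp-high libraries and 13.8 and 15.4 CPM in the Dbp-low libraries (log2 fold change 1.13, SE 0.098, edgeR adjusted p = 0.00958). Usp2, a ubiquitin protease, had 52.9, 45.1, 44.2 and 50.8 CPM against 23.5 and 18.8 CPM (log2 fold change 1.17, SE 0.12, edgeR adjusted p = 0.0209). It lies opposite an Rnf26 gene with 56.0% of its length-scaled level and a log2 fold change of -0.14. Leo1, a subunit of the PAF1 transcription elongation complex, had 9.34, 9.02, 7.12 and 6.92 CPM in the Dbp-high libraries and 18.6 and 20.4 CPM in the Dbp-low libraries (log2 fold change -1.30, SE 0.14, edgeR adjusted p = 0.0239). With 1 library left out the adjusted p reached 0.0774 for Wee1, 0.104 for Usp2 and 0.149 for Leo1. Among those fits, Wee1 lost its call only without normoxia replicate 3 or 5, and Usp2 and Leo1 lost theirs without other libraries as well.

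Cdkn1a, which encodes the cell-cycle inhibitor p21, had one of the largest differences of that list without passing the test. Its levels were 109 and 237 CPM in Dbp-high normoxia, 130 and 116 CPM in Dbp-high hypoxia, 864 CPM in Dbp-low normoxia and 583 CPM in Dbp-low hypoxia (log2 fold change -2.30, SE 0.29, edgeR adjusted p = 0.0786). All 4 Dbp-high libraries lay below the Dbp-low libraries. Proteins that modify or degrade clock components showed no call other than Usp2 among 9 genes, with a median log2 fold change of -0.011: Csnk1e, which phosphorylates period proteins, had -0.071 (SE 0.088).

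Tnxb was higher and Eln lower in the Dbp-high libraries. Tnxb, which encodes tenascin X (ENSMUSG00000033327, chromosome 17, 34670535 to 34719815, plus strand), stood at 252 and 218 CPM in Dbp-high normoxia, 206 and 206 CPM in Dbp-high hypoxia, and 93.0 and 84.5 CPM in the Dbp-low libraries (log2 fold change 1.29, SE 0.088, edgeR adjusted p = 0.00435). Eln, which encodes elastin, the elastic fibre protein of vessel walls and alveoli (ENSMUSG00000029675, chromosome 5, 134702593 to 134747323, minus strand), stood at 146 and 176 CPM in Dbp-high normoxia and 584 CPM in Dbp-low normoxia. In hypoxia it was 490 and 329 CPM in the Dbp-high libraries and 1617 CPM in the Dbp-low library. Elastin was therefore lower in every Dbp-high library than in the Dbp-low library of its oxygen group, and higher in hypoxia at like Dbp class. Its log2 fold change between the classes was -1.94 (SE 0.17, edgeR adjusted p = 0.011), and the call was lost without normoxia replicate 3 (adjusted p = 0.0525), normoxia replicate 5 (0.109) or hypoxia replicate 5 (0.129).

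Elastin's partners did not all follow. Lox, the lysyl oxidase that cross-links elastin and collagen, had 101, 147, 171 and 157 CPM in the Dbp-high libraries and 359 and 350 CPM in the Dbp-low libraries without passing the test (log2 fold change -1.34, SE 0.18, edgeR adjusted p = 0.058). Fbn1, the fibrillin of the microfibril scaffold, had 76.0 to 128 CPM against 119 and 162 CPM, which overlapped (log2 fold change -0.61, SE 0.13, edgeR adjusted p = 0.207). Of the 29 matrix genes measured, Eln alone was called, 18 lay below 0 and the median log2 fold change was -0.050. The summed level of the list was 8774 to 15131 CPM in the Dbp-high libraries and 10439 and 16247 CPM in the Dbp-low libraries, so the list as a whole overlapped. Among smooth muscle and pericyte markers, whose cells make elastin in vessel walls, 0 of 16 were called, and their sum of 1545 to 2287 CPM in the Dbp-high libraries enclosed the 1585 and 2181 CPM of the Dbp-low libraries. In bulk lung, fewer cells of a type and less RNA per cell cannot be told apart.

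Spon2, Adamts17 and Angptl2, which encode secreted proteins, were also called, and are set together here after their calls were known. Spon2, a matricellular protein gene, had 4.53, 3.07, 2.90 and 1.44 CPM in the Dbp-high libraries and 16.6 and 18.9 CPM in the Dbp-low libraries (log2 fold change -2.66, SE 0.32, edgeR adjusted p = 0.0466, up to 0.235 with 1 library left out). Adamts17, a secreted metalloprotease gene, had 2.89, 2.98, 4.47 and 3.36 CPM against 9.81 and 13.6 CPM (log2 fold change -1.79, SE 0.17, edgeR adjusted p = 0.0143). Angptl2, a secreted angiopoietin-like protein gene, ran the other way at 114, 109, 163 and 144 CPM against 63.3 and 74.9 CPM (log2 fold change 0.91, SE 0.10, edgeR adjusted p = 0.0309). None of the 3 had overlapping classes. With 1 library left out the adjusted p reached 0.129 for Adamts17 and 0.133 for Angptl2.

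Pdxk, Sord, Mthfd1l, Nat8f3 and Nat8f7 were higher in the Dbp-high libraries, and Slc16a10 and Ahcyl2 were lower. Pdxk, the kinase that activates vitamin B6, had 61.6 to 69.2 CPM in the Dbp-high libraries against 33.0 and 34.3 CPM (log2 fold change 0.94, SE 0.080, edgeR adjusted p = 0.00878). Sord, sorbitol dehydrogenase, had 72.7 to 87.6 CPM against 40.8 and 44.7 CPM (0.94, SE 0.089, adjusted p = 0.0148). Mthfd1l, the mitochondrial enzyme of folate one-carbon metabolism, had 14.4 to 16.8 CPM against 5.96 and 3.36 CPM (1.75, SE 0.22, adjusted p = 0.0466). No library overlapped between the classes in these 3 genes, nor in the N-acetyltransferase genes Nat8f3 (7.87 to 9.77 CPM against 2.55 and 2.62 CPM) and Nat8f7 (3.59 to 4.59 CPM against 1.10 and 0.97 CPM), which are paralogs that could share reads. Lower in the Dbp-high libraries were Slc16a10, a transporter of aromatic amino acids (15.02 to 19.2 CPM against 27.7 and 31.0 CPM), and Ahcyl2 (59.5 to 65.0 CPM against 117 and 95.8 CPM), with log2 fold changes of -0.79 and -0.78. With 1 library left out the adjusted p reached 0.0672 for Pdxk, 0.0999 for Sord, 0.151 for Mthfd1l and 0.122 for Nat8f3, and no such fit called Nat8f7, Slc16a10 or Ahcyl2.

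Hc, Adm and Gbp6 were lower in the Dbp-high libraries. Hc, which encodes complement C5, had 189, 208, 251 and 235 CPM in the Dbp-high libraries and 423 and 440 CPM in the Dbp-low libraries (log2 fold change -0.99, SE 0.10, edgeR adjusted p = 0.0233). Adm, which encodes the vasodilator adrenomedullin, had 8.69, 8.93, 7.73 and 6.32 CPM against 17.1 and 17.3 CPM (log2 fold change -1.15, SE 0.14, edgeR adjusted p = 0.042), and no left-out fit called it (adjusted p of 0.0737 to 0.246). Gbp6, an interferon-induced GTPase, had 8.91 and 9.12 CPM in Dbp-high normoxia, 20.5 CPM in Dbp-low normoxia, 25.1 and 18.98 CPM in Dbp-high hypoxia and 81.1 CPM in Dbp-low hypoxia, so its classes overlapped across oxygen groups and not within them (log2 fold change -1.57, SE 0.17, edgeR adjusted p = 0.0309). It shares its strand and place with a predicted gene that had 57.0% of its length-scaled level. With 1 library left out the adjusted p reached 0.147 for Hc and 0.142 for Gbp6. Adm belongs to a list of 22 measured hypoxia targets in which no other member was called; Ldha, a glycolytic enzyme, had 209 to 213 CPM in the Dbp-high libraries against 177 and 179 CPM (edgeR adjusted p = 0.454), and Slc2a1, a glucose transporter, had 21.2 to 29.0 CPM against 30.1 and 32.7 CPM (adjusted p = 0.612).

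Of the remaining called genes, 5 were higher and 2 lower in the Dbp-high libraries. Cys1, which encodes the ciliary protein cystin, had 54.6 to 62.4 CPM against 24.9 and 26.1 CPM (log2 fold change 1.19, SE 0.094, edgeR adjusted p = 0.00682), and Cpeb1, an RNA-binding regulator of poly(A) tails, had 35.7 to 42.2 CPM against 17.9 and 17.4 CPM (1.11, SE 0.089, adjusted p = 0.00682). Snhg11, a small nucleolar RNA host gene, had 83.3 to 107 CPM against 61.6 and 53.8 CPM, and Tmem119, which marks microglia in brain, had 51.5 to 78.7 CPM against 23.5 and 38.7 CPM. Gsg1l, an auxiliary subunit of AMPA receptors in brain, had 2.84 to 6.64 CPM against 0.788 and 1.45 CPM. Those 5 were higher in the Dbp-high libraries. Lower were Msc, the repressor musculin (0.952 to 1.43 CPM against 4.37 and 6.61 CPM, log2 fold change -2.26, SE 0.28, edgeR adjusted p = 0.042), and Fam124b (0.503 to 2.27 CPM against 6.66 and 9.60 CPM, -2.96, SE 0.34, adjusted p = 0.0344). With 1 library left out the adjusted p reached 0.0563 for Cys1, 0.0664 for Cpeb1, 0.169 for Tmem119 and 0.181 for Fam124b, and no such fit called Snhg11, Gsg1l or Msc.

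**Figure D3:**
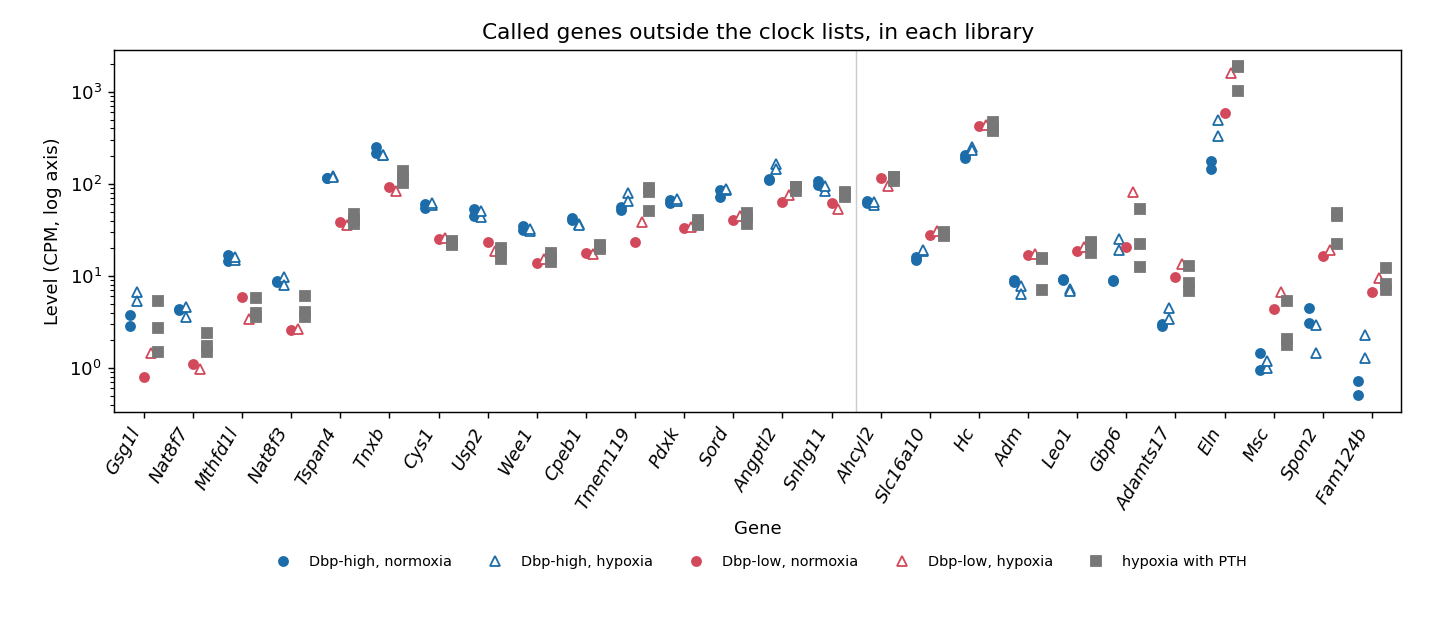
Level of the 26 called genes outside the clock lists in each of 9 libraries (CPM, log axis): blue for Dbp-high, red for Dbp-low and grey squares for hypoxia with PTH, with filled circles for normoxia and open triangles for hypoxia. The grey line parts the 15 genes higher in Dbp-high libraries from the 11 lower. Eln spans 146 to 1893 CPM with all blue points under all red points, and the grey squares of Tmem119 and Gsg1l do not sit with the red points.

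Stress, feeding and cell type genes that could differ with time of day were counted from 40 lists. A called member was found in 8 lists and in none of the other 32, whose median log2 fold changes ran from -0.53 to 0.66. Of 16 glucocorticoid targets, 13 lay below 0 with a median of -0.38 and 0 were called, the nearest being Sgk1, a kinase induced by the hormone, at 188, 182, 208 and 233 CPM in the Dbp-high libraries and 299 and 566 CPM in the Dbp-low libraries (edgeR adjusted p = 0.0552). Of 16 genes of fasting and fatty acid oxidation, 14 lay below 0 with a median of -0.25 and 0 were called; Acot1, an acyl-CoA thioesterase, had 39.2 to 64.3 CPM against 111 and 111 CPM (edgeR adjusted p = 0.0552). In both lists the members that were nearest to a call were higher in the Dbp-low libraries. Of 30 cell cycle genes, Wee1 alone was called, and 21 lay below 0 with a median of -0.19: Top2a, a topoisomerase of dividing cells, had 3.88 to 6.71 CPM against 8.38 and 9.305 CPM (edgeR adjusted p = 0.231).

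No marker of another cell type was called in these lists. Their part in the results was not tested, apart from the cardiac muscle and adipocyte score given below. Over all genes tested, 50.5% lay above 0. Of 10 mesothelial markers, 9 lay above 0 with a median of 0.66 and 0 were called, at a summed level of 411 to 597 CPM in the Dbp-high libraries and 321 and 460 CPM in the Dbp-low libraries. Of 18 neutrophil markers, 17 lay below 0 with a median of -0.53 and 0 were called, at 270 to 1657 CPM against 1115 and 710 CPM, so the Dbp-low sums lay within the range of the Dbp-high ones. Lists of other cell types also leaned to one side without a call: 18 of 20 T cell markers (median 0.17) and 10 of 12 erythroid markers (median 0.22) lay above 0, and 10 of 12 capillary endothelial markers lay below 0 (median -0.23). Cardiac muscle (18 genes, 529 to 1236 CPM against 301 and 1954 CPM) and adipocyte markers (10 genes, 30.0 to 312 CPM against 40.3 and 239 CPM) differed widely between libraries of 1 class and had 0 calls each. With a score of the last pair of lists in the model, 32 of the 36 genes stayed called, and Per2, Nr1d1, Adm and Spon2 lost their call.

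The difference between the classes was also computed separately in each oxygen group, from libraries the other group did not share. Over the 15891 genes of at least 1 CPM the normoxia difference had an SD of 0.42 and the hypoxia difference 0.39 on the log2 scale, and across those genes Pearson's r was 0.0275, a description of genes that are not independent replicates. Across genes, then, the difference in one oxygen group said little of that in the other. The called genes were chosen on the joint fit and lie in like corners by that choice. Per3 differed by 2.24 in normoxia and 2.50 in hypoxia, Tspan4 by 1.60 and 1.75, Npas2 by -3.56 and -3.66 and Eln by -1.87 and -2.01. Per2 and Nr1d1 were less even, at 1.64 and 2.56 and at 1.83 and 1.30.

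**Figure D4:**
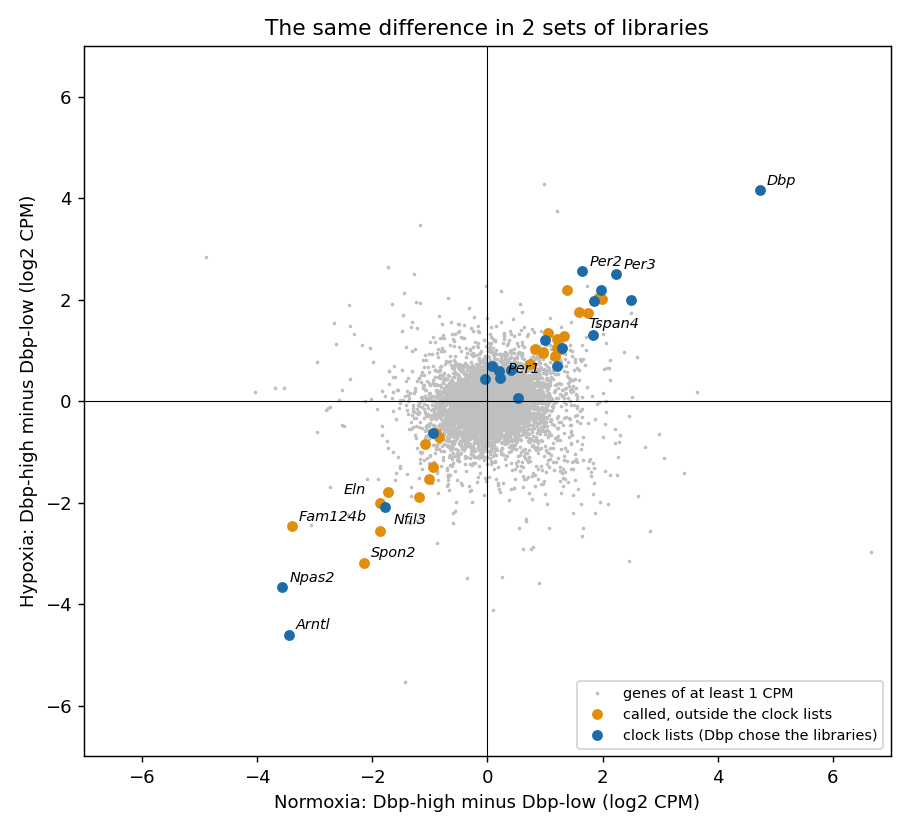
Difference between Dbp-high and Dbp-low libraries in normoxia (x axis, log2 CPM) and in hypoxia (y axis, log2 CPM); each point is 1 gene, grey for the 15891 genes of at least 1 CPM, orange for called genes outside the clock lists and blue for clock genes. The 2 axes use different libraries. Grey points form a round cloud, with an r of 0.0275, and Per3, at 2.24 and 2.50, and Npas2, at -3.56 and -3.66, lie in opposite corners.

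A test of the difference between the 2 within-oxygen changes called 1 of 21119 genes (0.00474%), Fam89b. It was at 0.00386 and 0 CPM in Dbp-high normoxia, 15.3 CPM in Dbp-low normoxia, 17.6 and 18.1 CPM in Dbp-high hypoxia and 0 CPM in Dbp-low hypoxia (edgeR adjusted p = 0.0014). Each library thus had either about 15 to 18 CPM or nearly none, with no intermediate value. No clock gene was called in that test, in which edgeR's adjusted p was 0.713 for Per3, 0.677 for Per2 and 0.987 for Npas2. With the class of each oxygen group resting on 1 Dbp-low library, 1538 genes had an unadjusted p under 0.05, DESeq2 called 50 and limma-voom called 0.

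The PTH libraries, which took no part in choosing the division or in the fit, were all Dbp-low. In 32 of the 36 called genes (88.9%) all 3 PTH libraries lay beyond the 4 Dbp-high libraries on the side of the Dbp-low mean, as did 10.6% of all genes tested. The 4 Dbp-high libraries enter both the calls and this count. It held for all 10 clock genes called and for 22 of the 26 others, the exceptions being Gbp6, Tmem119, Gsg1l and Adm. Per3 had 29.3, 36.6 and 29.7 CPM with PTH, Npas2 had 18.1, 13.3 and 15.2 CPM, and Tspan4 had 40.8, 46.9 and 36.2 CPM, all near the Dbp-low libraries. Eln stood at 1031, 1867 and 1893 CPM with PTH, around the 1617 CPM of the Dbp-low hypoxia library and above the 490 and 329 CPM of the Dbp-high ones.

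The study's comparison of hypoxia with PTH against hypoxia therefore sets 3 Dbp-low libraries against 2 Dbp-high and 1 Dbp-low library. No PTH library was Dbp-high, so a model with the class takes the class difference as equal in each group. Only that 1 hypoxia library shares the class of the PTH libraries. A difference in Dbp level that came with PTH cannot be told apart from the class here. In a model of all 9 libraries without the Dbp class, Per3 had a log2 fold change of -1.92 (SE 0.77) with PTH, and with the class in the model it had 0.014 (SE 0.13). Tspan4 moved likewise from -1.13 (SE 0.54) to 0.17 (SE 0.12) and Eln from 1.00 (SE 0.77) to 0.035 (SE 0.31). Bhlhe40 moved from -0.11 (SE 0.37) to 0.73 (SE 0.12, edgeR adjusted p = 0.356). Its PTH libraries, at 60.04, 60.1 and 70.4 CPM, stood between the 2 classes. With the class in the model edgeR called 0 of 20238 genes (0%) between PTH hypoxia and hypoxia, with 1439 genes at an unadjusted p under 0.05, while DESeq2 called 99 and limma-voom 0; edgeR called 8 without hypoxia replicate 5 and 2 without normoxia replicate 5. Without it edgeR also called 0, with 1828 genes at an unadjusted p under 0.05.

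The study's comparison of hypoxia against normoxia was balanced for the division, with 2 Dbp-high and 1 Dbp-low library in each group. With the Dbp class in the model 216 of 19993 genes were called (1.08%), 133 higher and 83 lower in hypoxia, and without it 137 of the genes tested (0.709%), with 131 genes in both sets. The 216 became 45 without normoxia replicate 3 or hypoxia replicate 1, 132 without normoxia replicate 5 and 119 without hypoxia replicate 5. Only Eln and Gbp6 were called both for hypoxia and for the Dbp class in the joint fit. Eln was higher in hypoxia by 1.39 on the log2 scale (SE 0.17, edgeR adjusted p = 0.0161) and Gbp6 by 1.52 (SE 0.17, edgeR adjusted p = 0.0133). Both genes were thus higher in hypoxia and lower in the Dbp-high libraries. The largest differences with hypoxia, in Ntrk2, a neurotrophin receptor (5.20), Slc26a10 (4.88) and Olfr78, an odorant receptor family gene (4.55), hardly moved with the Dbp term, being 5.20, 4.87 and 4.59 without it.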

How the data were processed

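Poly(A) RNA of whole mouse lung was sequenced in 9 libraries, and 6 of them enter the main comparison. Per the submitters' processing notes, Trimmomatic 0.39, STAR 2.7.9a and mm10 were used; the counting program, strand setting and gene models are not given here. One deposited table lists 53342 genes, with 2 columns for each library. The deposited expected counts are estimated counts, since 11.4% of those above 0 are whole; of whole counts of 1 to 20, 88.8% are even, so mates seem to have been counted individually. The deposited log2 values are log2 TPM by the authors with a floor of 1 TPM, since their powers of 2 sum to 997249 to 997533, and were used only in alternatives.

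The 3 labelled groups were taken from the sample titles, and the Dbp class from CPM of the column total. Printed levels are such CPM. Counts were rounded and tested with edgeR 4.0.16 in R 4.3.3 (TMM, filterByExpr with a minimum count of 10 and total of 15, robust quasi-likelihood F test, Dbp class and oxygen group), and p was adjusted by Benjamini-Hochberg over all genes tested. The calls used a threshold of 0.05. The median SE of a log2 fold change was 0.16 and the common biological coefficient of variation 0.205. Two-sided exact tests of 4 against 2 libraries cannot go below p = 0.0667 and were not used. The labels do not state separate animals, so p-values measure the spread between libraries, which may be technical. A length-scaled level is a mean TPM.

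The members and gene lists were chosen with earlier results of these data known. The named genes are all members of 3 clock lists, the 10 largest rises and 10 largest falls among called genes of at least 5 CPM that lie on the same side in both oxygen groups, predicted genes left out, and up to 4 members with the smallest p of each list with a called member; the other called genes, Cdkn1a, Sgk1, Acot1 and Fam89b, and the genes of the closing section beside it, were added after their values were seen. Some genes that the rule names are not reported here. Alternatives covered DESeq2 1.42.0 (its size factors and its test), limma 3.58.1 (voom, and the trend method on log2 TPM, pseudocount 0.1 or 1), no filter and a stricter filter of 1 CPM in 4 libraries, an adjusted p under 0.1, an absolute log2 fold change of at least 1, each library left out, no oxygen term, no Dbp term, all 9 libraries, the replicate number as a block, and a cardiac muscle and adipocyte marker score. Promoter sequence is that of RefSeq, and 29 of the 38 called genes had a window.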

Additional observations from a re-analysis of the deposited data

Results flagged for a closer look

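Fam89b was the 1 gene whose Dbp-high minus Dbp-low difference was called as unequal in hypoxia and normoxia (edgeR adjusted p = 0.0014). Among the 4 Dbp-high libraries hypoxia replicate 1 stood apart from the other 3 by Dixon's criterion for Tspan4 (122 CPM) and for Top2a (6.71 CPM), as chance does for about 1 in 20 such groups. Csnk1e, a kinase gene of the clock, had every Dbp-high library on one side of the Dbp-low library in normoxia and on the other side in hypoxia; the hypoxia minus normoxia difference was 0.18 on the log2 scale, and the test of that difference did not call it (edgeR adjusted p = 0.817).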

How the results depend on the processing

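The count of genes called between Dbp-high and Dbp-low libraries was 38, and it became 88 at an adjusted p under 0.1, 436 with the DESeq2 test, 193 with no filter, 16 with no oxygen term, 20 with limma-trend on log2(TPM + 0.1), 25 with limma-trend on log2(TPM + 1), and 10 to 27 with 1 library left out. Between 31 and 52 genes were called with DESeq2 size factors (41), limma-voom (36), a stricter filter (52), all 9 libraries (45), the muscle and fat score (51), a minimum absolute log2 fold change of 1 (31) or limma-trend on log2(TPM + 1) with no filter (31). The count for hypoxia against normoxia with the Dbp term was 216, and it became 445 at an adjusted p under 0.1, 1023 with DESeq2, 569 with no filter, 137 with no Dbp term and 45 to 220 with 1 library left out. The count for unequal differences in hypoxia and normoxia was 1 (8 at 0.1, 50 with DESeq2, 0 with limma-voom, 39 with no filter, 0 with a stricter filter, 6 to 9 with 1 Dbp-high library left out; without a Dbp-low library it could not be fitted). The count for hypoxia with PTH against hypoxia with the Dbp term was 0 (99 with DESeq2, 2 with no filter, 0 to 8 with 1 library left out). The cause of these moves was not tested. Rora and Csnk1e, neither called, changed sign: with 1 library left out, Rora ran from -0.068 (without hypoxia replicate 5) to 0.45, and Csnk1e from -0.15 to 0.021 (without normoxia replicate 5).

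No paired analysis was possible because the Dbp-high and Dbp-low libraries compared share no replicate number, every Dbp-low library among them being replicate 5. The PTH libraries, outside the division and low in Dbp as well, carry replicate numbers 3, 4 and 5. For hypoxia against normoxia, which share only numbers 2 and 5, the replicate number as a block left 2 calls, and for hypoxia with PTH against hypoxia it left 0; the labels do not say that a number marks a pair. The Dbp-low class holds 2 libraries and the comparison has 3 residual degrees of freedom. Of the 36 called genes, 33 stayed called with limma-voom, 28 with all 9 libraries and 36 with DESeq2.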

Other observations

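Several genes, chosen after their values were seen, followed the pattern of Fam89b or its opposite without passing the test of unequal differences. Gm42418 stood at 532 and 457 CPM in Dbp-high normoxia, 1306 CPM in Dbp-low normoxia, 1121 and 1150 CPM in Dbp-high hypoxia and 546 CPM in Dbp-low hypoxia (edgeR adjusted p = 0.0578). Rn7s1, a signal recognition particle RNA gene, had 27.5, 28.6 and 91.4 CPM in the normoxia libraries in the same order and 70.4, 57.6 and 42.4 CPM in hypoxia (edgeR adjusted p = 0.0578). Lars2, which encodes the mitochondrial leucyl-tRNA synthetase, had 98.4, 90.2 and 424 CPM in normoxia and 439, 304 and 170 CPM in hypoxia (edgeR adjusted p = 0.0895). Sssca1, which lies on chromosome 19 as Fam89b does, ran the other way, with 53.6, 53.2 and 29.2 CPM in normoxia and 31.5, 33.8 and 55.4 CPM in hypoxia. For Gm42418, Rn7s1, Lars2 and Sssca1, normoxia replicate 5 stood nearer to hypoxia replicates 1 and 2 than to hypoxia replicate 5. For Rn7s1, though, hypoxia replicate 2 stood nearer to hypoxia replicate 5 than to normoxia replicate 5. The 3 PTH libraries stood at 503 to 655 CPM for Gm42418 and at 18.8 to 20.6 CPM for Fam89b, with one set of these libraries for the first gene and with the other set for the second.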
